A study of Rattus norvegicus with 10 samples.

Results

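Cck and 5 genes that mark excitatory and other neurons of the cerebral cortex and hippocampus (Slc17a7, Lamp5, Neurod6, Tbr1 and Camk2a) were examined in the hypothalamus of each rat. They are 6 of the 14217 genes that the array annotation assigns alone to a probe set, and they were measured by 10 probe sets of 20826. The genes were chosen on values from these same 10 rats, namely the diet difference of Cck and the high values of the cortical genes in 1 rat of the C group, so both are given below as a description and not as a test. The study asked how chewing solid feed changes the hypothalamus after weaning. Male Wistar rats received solid chow (C group, n = 5) or powdered feed (P group, n = 5) for 8 days and were 4 weeks old at sampling. All rats of both groups had eaten powdered feed during an acclimatization period before the diets diverged. Each rat gave 1 array of hypothalamic total RNA, and rats are called Chow 1 to 5 and Powder 1 to 5 by their replicate number in the labels.

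Cholecystokinin, the product of Cck, is a peptide that the gut releases after a meal and that many brain neurons also release, including pyramidal cells and a class of inhibitory interneurons of the cortex and hippocampus. Slc17a7 encodes VGLUT1, which loads glutamate into synaptic vesicles and is the main vesicular glutamate transporter of cortical and hippocampal excitatory neurons, whereas hypothalamic excitatory neurons mostly use VGLUT2 (Slc17a6). Neurod6 and Tbr1 encode transcription factors of cortical excitatory neurons, Camk2a encodes the alpha subunit of the calmodulin-dependent kinase of excitatory synapses, and Lamp5 encodes a lysosome-associated membrane protein found in mouse and human in a class of cortical interneurons. In whole tissue, a different number of cells of one type and a different amount of RNA per cell cannot be told apart.

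RefSeq promoters (assembly GRCr8) were matched for 5 of the 6 genes, namely Slc17a7, Lamp5, Neurod6, Tbr1 and Camk2a. The 120 bases before the start of Slc17a7 and Neurod6 are shown because these 2 genes, beside Cck, had the highest excess in Chow 1. Capitals mark the GC box GGGCGG in Slc17a7 and, in Neurod6, the cyclic AMP response element TGACGTCA and the E-box CAGATG, read on both strands. Slc17a7 lies on the plus strand at chr1:104786085-104786204 and Neurod6 on the minus strand at chr4:86180156-86180275.
Slc17a7: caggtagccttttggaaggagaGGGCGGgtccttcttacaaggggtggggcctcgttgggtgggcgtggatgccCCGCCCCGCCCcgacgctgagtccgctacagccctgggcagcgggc
Neurod6: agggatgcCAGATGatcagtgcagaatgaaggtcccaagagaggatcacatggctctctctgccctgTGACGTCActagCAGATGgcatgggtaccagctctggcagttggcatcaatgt
Within 250 bases before the start, Neurod6 held 1 copy of TGACGTCA, which 1.59% of 33469 rat promoters also hold. It held 2 copies of CAGATG, present in 14.0% of promoters, and these count among its 4 matches to the general E-box CANNTG, present in 65.5%. The T-box core motif AGGTGT, found in 11.6% of promoters, was present once in Neurod6 and once in Camk2a, where it overlaps a CANNTG match. Slc17a7 held 3 GC boxes, a motif of 30.5% of promoters, and 2 of them share a base. These matches describe letters only.

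The values were log2 signals already normalized with factor analysis for robust microarray summarization, which gives nearly the same value in every array to a probe set whose probes do not vary together. Of 31042 probe sets, 92.6% had an SD over the 10 rats below 0.001 (called flat here) and 4.48% had an SD above 0.1 (called varying). Among probe sets naming 1 gene, 1015 varied. Correlations between arrays lay between 0.9970 and 0.9991. Chow 1 was the highest of the 10 rats in 30.7% of those 1015 probe sets, followed by Chow 4 with 23.1%. The values of each rat, Chow 1 included, helped to decide which probe sets vary. With the SD taken over the other 9 rats, Chow 1 was the highest in 23.9% of 918 probe sets naming 1 gene. Without any filter on the SD it was the highest in 2292 of the 20826. By the rank product criterion of the study (an estimated false discovery rate, FDR, below 0.05), 292 probe sets were higher in the C group (0.941%) and 254 were lower (0.818%). limma with Benjamini-Hochberg adjustment called 0 (0%), with 1100 at an unadjusted p below 0.05.

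Cck, measured by 1 probe set, was at 9.45, 8.61, 9.07, 8.87 and 8.81 in Chow 1 to 5, against 8.64, 8.76, 8.79, 8.75 and 8.85 in Powder 1 to 5. Chow 1 was the highest rat by 0.38, Chow 3 came next, and the lowest rat of all, Chow 2, was also in the C group, so the groups overlapped. The means were 8.96 ± 0.32 in the C group, against 8.76 ± 0.08 in the P group (SD, n = 5 each), a difference of 0.20 (SE 0.14), with 4 of 5 C rats above the P mean. Cck was among the probe sets called higher by rank products. Chow 1 lay 0.66 above the mean of the other 9 rats, or 1.58-fold. Without Chow 1 the difference was 0.08 (SE 0.09) between a C mean of 8.84 ± 0.19 (n = 4) and the P mean, and Cck was not called. It was also not called without Chow 3, and it was called in the other 8 of 10 cases in which 1 rat was left out.

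Slc17a7 (VGLUT1) had the widest gap between Chow 1 and the next rat among the 6 genes. Its varying probe set read 8.05, 6.91, 6.73, 6.62 and 6.90 in Chow 1 to 5, against 6.75, 6.77, 6.66, 6.76 and 6.79 in Powder 1 to 5. Chow 1 was 1.14 above the next rat and 2.44-fold above the mean of the other 9, and the remaining C rats lay on both sides of the P rats. The group means were 7.04 ± 0.58 in the C group, against 6.74 ± 0.05 in the P group, a difference of 0.30 (SE 0.25) that rank products called higher. Leaving out Chow 1 reduced the difference to 0.04 (SE 0.06). The call was lost without Chow 1, without Chow 2 and without Chow 5, and it held in the other 7 cases. A second Slc17a7 probe set was flat at 6.72.

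The cortical transcription factors differed between them. Neurod6 read 7.44, 7.03, 6.80, 6.91 and 6.89 in Chow 1 to 5, against 6.22, 6.93, 6.91, 6.99 and 6.94 in Powder 1 to 5. Chow 1 was the highest rat, 1.51-fold above the mean of the other 9, and Powder 1 was the lowest by a wide margin, while the other 8 rats lay close together. The difference of 0.22 (SE 0.18) was not called by rank products, and it was 0.11 without Chow 1 and 0.07 without Powder 1. The only Tbr1 probe set was flat at 6.31, so Tbr1 gives no information on any rat.

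Camk2a was measured by 4 probe sets, 2 of them varying and called A and B here. Set A, the one with the highest mean signal, read 10.32, 9.71, 9.85, 9.62 and 9.94 in Chow 1 to 5, against 9.92, 9.80, 9.80, 9.78 and 9.76 in Powder 1 to 5. Here Chow 1 was the highest rat, 1.44-fold above the mean of the other 9. Set B read 8.77, 8.58, 8.93, 8.57 and 9.01 in Chow 1 to 5, against 8.79, 8.67, 8.77, 8.67 and 8.66 in Powder 1 to 5. In set B Chow 5 was the highest and Chow 1 lay only 0.03 above the mean of the other 9, ranking 4 of 10. The diet differences were 0.07 (SE 0.12) and 0.06 (SE 0.09) and neither was called. The other 2 probe sets spanned no more than 7.64 to 7.72 and a flat 6.79.

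Lamp5 went the other way between the diets. It read 8.69, 8.17, 8.22, 8.14 and 8.21 in Chow 1 to 5, against 8.32, 8.35, 8.28, 8.25 and 8.59 in Powder 1 to 5. Chow 1 was again the highest rat, 1.33-fold above the mean of the other 9, but Powder 5 was only 0.10 lower, and the other 4 C rats were the lowest of all. The means were 8.29 ± 0.23 in the C group, against 8.36 ± 0.14 in the P group, a difference of -0.07 (SE 0.11), and rank products called Lamp5 lower in the C group. Without Chow 1, all 4 C rats (8.14 to 8.22) lay below all 5 P rats (8.25 to 8.59) and the difference was -0.17 (SE 0.07), still called lower. Such a separation was found in 5 of the 1015 varying probe sets (0.493%). Random labels of 4 against 5 rats also separate some probe sets in this way. The share was not set against that number, so it does not show a diet effect for Lamp5 or the others. The other 4, which were named after their values were seen, belonged to Epb41l3, Armh4, Gnas and Ano3. The Lamp5 call held in 9 of 10 cases with 1 rat left out and was lost without Powder 5, where the difference was -0.01. Lamp5 was also not called at an FDR below 0.01, with rank sums, or among probe sets with an SD above 0.1.

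**Figure D1:**
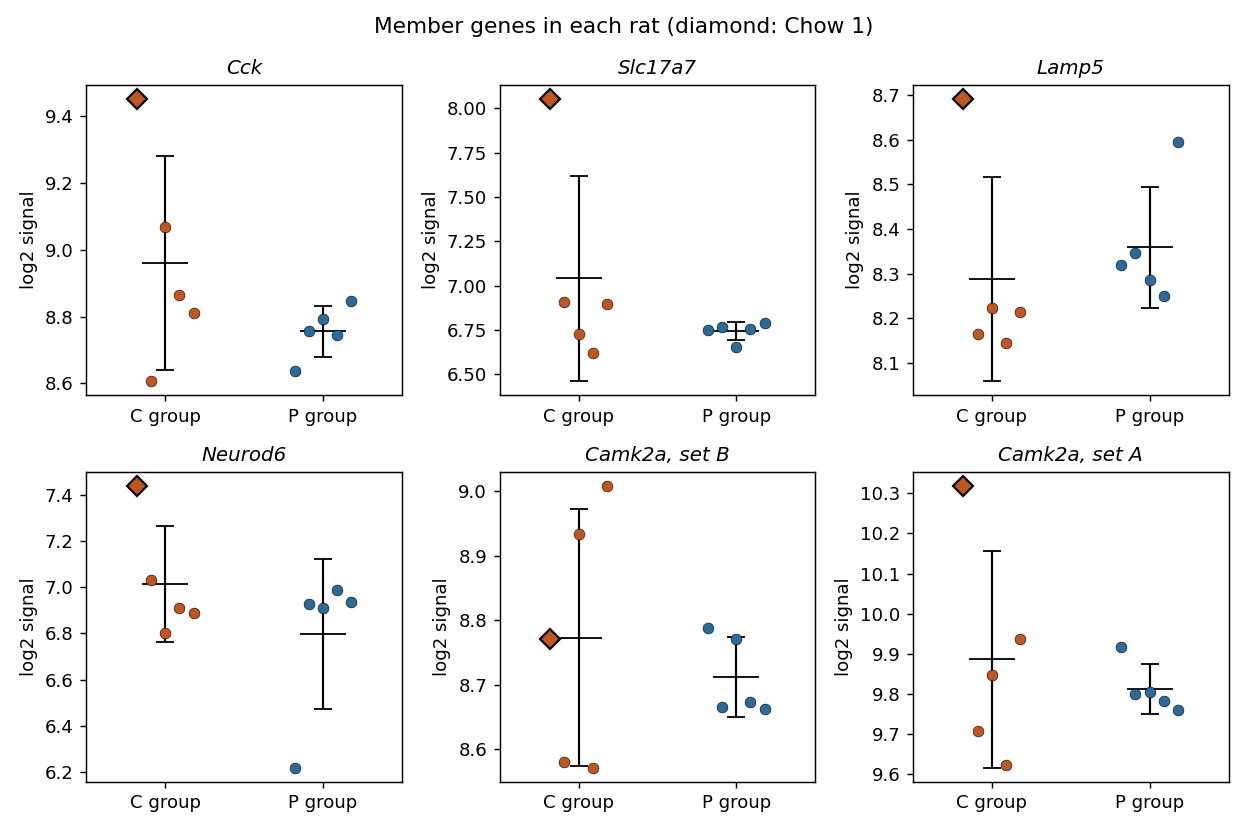
Log2 signal (vertical axis) of the 6 varying probe sets of Cck, Slc17a7, Lamp5, Neurod6 and Camk2a in each rat, C group left and P group right, with the group mean and SD as a line and bar (n = 5 each). Chow 1, the diamond, is the highest rat in 5 of the 6 panels, and in the Lamp5 panel the other 4 C rats lie below every P rat.

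Of the 10 probe sets of the 6 genes, rank products thus called 2 higher and 1 lower in the C group, beside the shares of 0.941% and 0.818% over all probe sets. Those shares include the 92.6% of probe sets that were flat, whereas 6 of the 10 varied, so they are not a matched comparison. Among the 1391 probe sets with an SD above 0.1, rank products called 1 higher and 4 lower, and none of the 6 genes. Without Chow 1 rank products over all probe sets called 0 of the 10 higher and 1 lower. limma called 0 of the 10 in the full comparison. The mean of Slc17a7, Lamp5, Neurod6, Tbr1 and Camk2a was 7.71 ± 0.26 in the C group, against 7.60 ± 0.06 in the P group, a difference of 0.10 (SE 0.12), which became -0.01 when Chow 1 was left out. By rat it was 8.16 in Chow 1, between 7.52 and 7.65 in Chow 2 to 5 and between 7.50 and 7.68 in the P rats.

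A further 40 genes of cortical and hippocampal neurons that are not among the 6 were listed, and 38 were analysed here. Of these, 19 were flat and 11 varied. Over all 38 genes Chow 1 was the highest rat in 26 (68.4%), against 2292 of all 20826 probe sets naming 1 gene, with a median excess over the mean of the other 9 rats of 0.01 and a mean excess of 0.23. Chow 1 was the highest rat in 10 of the 11 varying genes, but its own values decide which genes vary: 7 of the 11 had an SD above 0.1 only with Chow 1 included. With the SD taken over the other 9 rats, a choice made after seeing the data, 5 genes exceeded 0.1. Chow 1 was the highest in 3 of these (Hpcal4, Slc30a3 and Bhlhe22) and not in C1ql3 or Dkk3, against 23.9% of 918 probe sets selected in the same way. The list was drawn up with that rat known, so these counts are a description.

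Ddn (dendrin, a protein of dendrites) read 9.34, 8.01, 8.08, 7.93 and 8.13 in Chow 1 to 5, against 8.21, 7.94, 8.09, 8.10 and 8.04 in Powder 1 to 5. Mef2c, a transcription factor of maturing neurons, read 9.77, 8.71, 8.73, 8.56 and 8.78 in Chow 1 to 5, against 8.78, 8.68, 8.62, 8.66 and 8.65 in Powder 1 to 5. Nrgn (neurogranin, a postsynaptic calmodulin-binding protein) read 9.97, 9.06, 9.17, 9.13 and 9.26 in Chow 1 to 5, against 9.20, 9.12, 9.10, 9.18 and 9.03 in Powder 1 to 5. In each of these 3 genes Chow 1 stood alone and the other 4 C rats overlapped the P rats. Chow 1 exceeded the mean of the other 9 rats by 0.93 in Slc30a3 (the zinc transporter of glutamate vesicles), 0.92 in Itpka (an inositol trisphosphate kinase of dendritic spines), and 0.76 in Bhlhe22 and 0.70 in Bcl11b, both cortical transcription factors. The excess was smaller in Arpp21 (0.50), Hpcal4 (0.33) and Lmo3 (0.28). C1ql3, a secreted synaptic protein, was the exception, with Chow 1 only 0.02 above the mean of the others and Chow 3 highest.

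**Figure D2:**
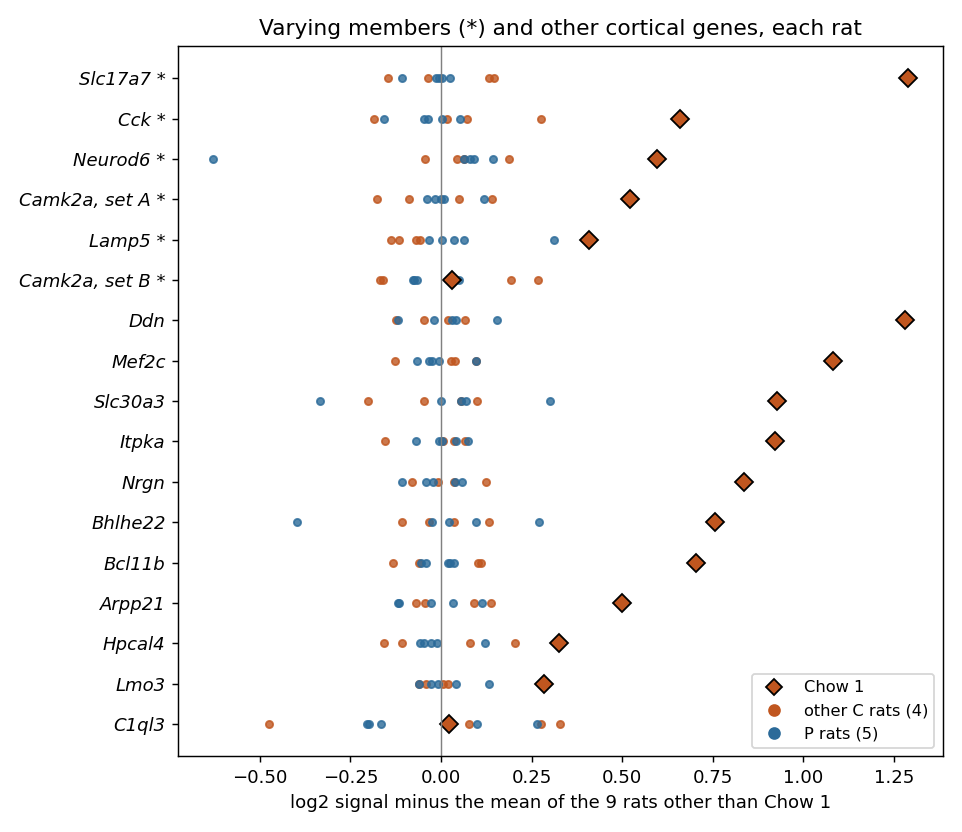
Log2 signal of each rat minus the mean of the 9 rats other than Chow 1 (horizontal axis), for the 6 varying member probe sets (starred) and the 11 varying other cortical and hippocampal genes, with Chow 1 as a diamond, the other 4 C rats and the 5 P rats as points. Chow 1 lies right of every other rat in 15 of the 17 rows, the exceptions being Camk2a set B and C1ql3.

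Between the diets, rank products called 4 of these 38 genes higher in the C group (Mef2c, 0.23; Nrgn, 0.20; Arpp21, 0.15; C1ql3, 0.09) and 1 lower (Nptx1, a neuronal pentraxin, -0.07), and limma called 0, with 0 at an unadjusted p below 0.05. The median difference over the 38 genes was 0.00. Without Chow 1 none of the 4 was called higher, with differences of 0.02 for Mef2c, 0.03 for Nrgn, 0.05 for Arpp21 and 0.09 for C1ql3, and Nptx1 was still called lower. Over all probe sets, the number called higher was 119 without Chow 1, and the number called lower was 224.

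**Figure D3:**
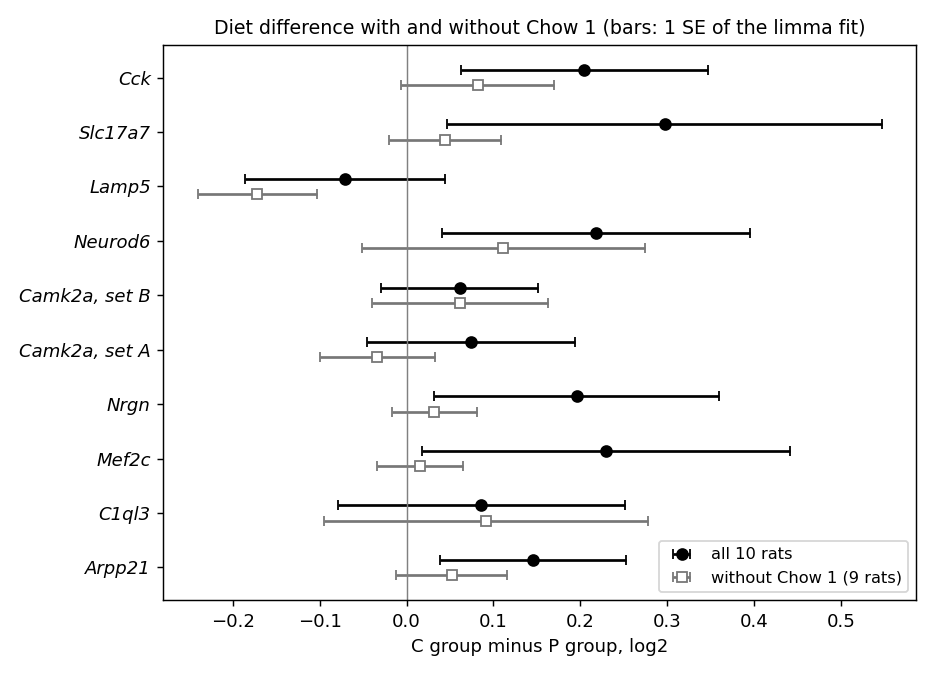
Difference of the C group minus the P group in log2 units (horizontal axis, bars 1 SE of the limma fit) for the 6 varying member probe sets and the 4 varying cortical genes called higher, over all 10 rats (filled circles) and without Chow 1 (open squares). Without Chow 1 the differences of Cck, Slc17a7, Nrgn, Mef2c and Arpp21 lie between 0.02 and 0.08, and that of Lamp5 lies at -0.17.

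Whether Cck followed the cortical genes from rat to rat was examined with the mean of the 38 other genes, flat ones included. This mean was 8.57, 8.32, 8.35, 8.31 and 8.34 in Chow 1 to 5, against 8.34, 8.32, 8.33, 8.33 and 8.33 in Powder 1 to 5. Over the 10 rats its correlation with Cck was r = 0.880 and rho = 0.430, given without a p because Chow 1 was known when the genes were chosen. Over the 9 rats other than Chow 1, which was the only relation tested, r was 0.456 (two-sided exact permutation p = 0.2155 over 362880 pairings) and rho was 0.217 (exact permutation p = 0.5809). Leaving out also Chow 3 and Chow 4, the 2 of these rats farthest from the median of the cortical mean, gave r = 0.304. Without Chow 1 and Chow 4, the 2 farthest of all 10 rats, r was 0.716 and rho 0.548, so that among the remaining rats r moved with the choice of 1 further rat. Leaving out Chow 1 lowered r by the most of any single rat, and among the other 9 a relation was not shown.

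Single members gave the same contrast. The correlation of Cck with Slc17a7 was r = 0.788 over the 10 rats and -0.40 over the 9 without Chow 1. For Lamp5 the 2 values were 0.620 and 0.03, for Neurod6 0.619 and 0.20, and for Camk2a 0.745 and 0.00. By rank the relation was low even over the 10 rats. There rho was -0.05 for Slc17a7, 0.19 for Lamp5, -0.02 for Neurod6 and 0.28 for Camk2a. The mean of the 5 cortical members correlated with the mean of the other 38 genes at r = 0.948 over 10 rats and 0.08 over 9, with rho = 0.26 over 10 rats. The next highest Cck value, 9.07 in Chow 3, came with a mean of the 38 other genes of 8.35, the second highest of the 10. The mean of the 5 cortical members in Chow 3 was 7.58, below the P mean of 7.60. With the mean of the other cortical genes as a covariate, the diet difference of Cck was 0.08 (SE 0.08). This covariate deviated by 0.211 from its 10-rat mean in Chow 1, and by -0.043 to -0.001 in the other 9 rats. The fit therefore largely repeats leaving out Chow 1.

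**Figure D4:**
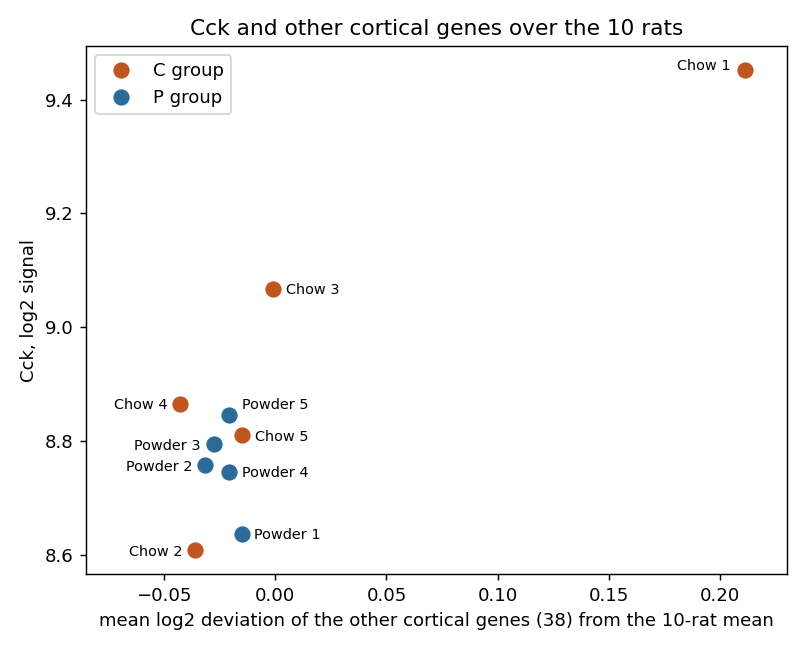
Log2 signal of Cck (vertical axis) against the mean log2 deviation of the 38 other cortical and hippocampal genes from their 10-rat mean (horizontal axis), 1 point for each rat of the C group and the P group. Chow 1 lies alone at the upper right with Cck at 9.45, and the other 9 rats form a cluster with r = 0.456.

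Among 1009 varying probe sets of other genes, those most like Cck over the 10 rats by Pearson correlation were Sv2b (0.924), C2cd2l (0.909), Dgkh (0.895), Ephx4 (0.892), Creg1 (0.891), Ngef (0.877), Arpp21 (0.876) and Olfm1 (0.875). Chow 1 was the highest rat in each of them. Sv2b, which encodes a synaptic vesicle protein, read 8.10, 7.49, 7.65, 7.55 and 7.61 in Chow 1 to 5, against 7.46, 7.64, 7.59, 7.62 and 7.56 in Powder 1 to 5, and its correlation with Cck was 0.685 over the 9 rats without Chow 1. That was the highest of the 8, which ranged down to 0.382 for Arpp21. This Arpp21 value came from a second probe set, at 9.65 in Chow 1 against 8.03 to 8.33 in the other 9 rats.

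The genes most like the mean of the 5 cortical members were LOC102547703 (0.968), Synpr (0.965), Rprml (0.962), Ano3 (0.958), Mlip (0.946), Hspb1 (0.944), Mef2c (0.942) and Sv2b (0.939). Rprml read 8.29 in Chow 1, against 6.89 to 7.11 elsewhere. Synpr, which encodes the vesicle protein synaptoporin, read 9.67 in Chow 1, against 9.31 to 9.40 elsewhere. Without Chow 1 the 8 correlations ranged between 0.08 for Mef2c and 0.75 for Hspb1, a small heat shock protein. The correlations are over 10 rats that share 1 extreme rat.

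The genes that make and receive the CCK peptide showed no change that passed either test. Of 14 listed, 12 were analysed here, 0 varied and 0 were called in either direction. The receptor Cckbr was flat at 7.06, as were the prohormone convertase Pcsk2 (8.33) and carboxypeptidase Cpe (13.28), which trim peptide precursors. Tpst2, a tyrosine sulfotransferase of the kind that sulfates CCK, read 9.07, 9.09, 9.05, 9.09 and 8.89 in Chow 1 to 5, against 8.88, 8.99, 9.02, 9.18 and 9.03 in Powder 1 to 5, with Chow 1 inside the range of the others. Flat values carry no information on whether these genes changed.

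Of genes that accompany Cck in inhibitory interneurons, 10 of 11 were analysed here, and rank products called 3 lower and 0 higher in the C group. These were the GABA-synthesizing enzymes Gad1 (-0.09) and Gad2 (-0.14) and the vesicular GABA transporter Slc32a1 (-0.13), which hypothalamic neurons also express, and the same 3 were called without Chow 1. The share called lower over all probe sets, most of them flat, was 0.818%. Reln, a secreted glycoprotein of cortical interneurons and Cajal-Retzius cells, read 9.83 in Chow 1, against 9.26 to 9.47 in the other 9 rats, and was not called. Of 15 genes of CaMKII and the glutamate synapse, 14 were analysed here, 0 varied and 0 were called. Chow 1 was the highest rat in 8 of the 14, by 0.22 in Gria2, 0.20 in Homer1, 0.17 in Camk2d and 0.10 in Camk2b above the mean of the others. Slc17a6, the transporter of hypothalamic excitatory neurons, was flat at 11.53.

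Genes of other cell types also set Chow 1 apart. Over all 21 hypothalamic neuron genes analysed, the mean deviation was -0.120 in Chow 1 and between -0.023 and 0.002 in Chow 2 to 5. In the P rats it was -0.003 to 0.088. By an SD that included Chow 1, 10 of the genes varied, and Chow 1 was the lowest rat in 7 of these and the highest in 1. Hcrt, the orexin precursor, read 9.94, 10.76, 10.95, 10.88 and 10.57 in Chow 1 to 5, against 10.89, 10.94, 10.79, 10.96 and 10.68 in Powder 1 to 5. Chow 1 was lower than the mean of the other 9 rats by 0.89 in Hcrt, and its deviation was -0.59 in Pmch (melanin-concentrating hormone), -0.50 in Nts (neurotensin) and -0.42 in Crh (corticotropin-releasing hormone). Rank products called 9 of the 21 lower in the C group and 0 higher, and 6 lower without Chow 1. Over all 31042 probe sets, most of them flat, 0.818% were called lower, and 224 without Chow 1. The lowest mean over the 21 genes was in Chow 1, the rat with the highest mean of the cortical genes. The reason was not tested.

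Leptomeningeal genes varied widely and in another order over the rats. Over 17 varying genes (such as Col1a1, Lum and Ogn, collagen and matrix genes of fibroblasts), the mean deviation from the 10-rat mean was 0.85 in Chow 1, 0.67 in Chow 4 and between -0.41 and -0.23 in Chow 2, 3 and 5, against -0.67 to 0.44 in the P rats. Chow 4 was thus high in leptomeningeal genes, whereas its mean deviation was -0.04 over the 38 other cortical genes and -0.10 over the 11 varying ones. Over the 38 cortical genes the mean deviation was 0.21 in Chow 1 and between -0.04 and 0.00 in Chow 2 to 5, against -0.03 to -0.01 in the P rats, and over the 11 varying ones, which Chow 1 helped to select, it was 0.63 in Chow 1. Rank products called 17 of 18 leptomeningeal genes higher in the C group, and 4 higher and 2 lower without Chow 1. Over all 31042 probe sets, most of them flat, 0.941% were called higher, and 119 without Chow 1.

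Values of other regions next to the hypothalamus were as follows. The 3 varying thalamic genes deviated by a mean of 0.03 in Chow 1, and Powder 1 was the highest with 0.43. Of 13 thalamic genes, Rgs16 was called higher (0.09) and Tnnt1 lower (-0.42) in the C group. Of 13 genes of striatum and amygdala, Meis2 was called lower (-0.20). The dopamine receptor Drd1 was 0.37 above the mean of the other rats in Chow 1, whereas the deviation of Drd2 was -0.30.

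Immediate early genes, which neurons switch on when active, deviated over all 14 measured by a mean of 0.13 in Chow 1 and between -0.06 and 0.02 in Chow 2 to 5, against -0.03 to 0.04 in the P rats. Over the 3 varying ones, which Chow 1 helped to select, the mean was 0.62 in Chow 1. Chow 1 exceeded the mean of the other 9 rats by 1.12 in Egr4 and 0.77 in Egr1, 2 zinc finger transcription factors of this class. Egr4 was called higher (0.23) and Fos lower (-0.13) in the C group, of 14 genes measured. Among the 7 astrocyte genes, Gfap (0.16) and Aqp4 (0.09) were called higher, and 0 were called without Chow 1. Of oligodendrocyte, microglial and endothelial genes 0 were called. The part of these cell types, of neuronal activity or of tissue next to the hypothalamus in the Cck and cortical values was not tested.

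**Figure D5:**
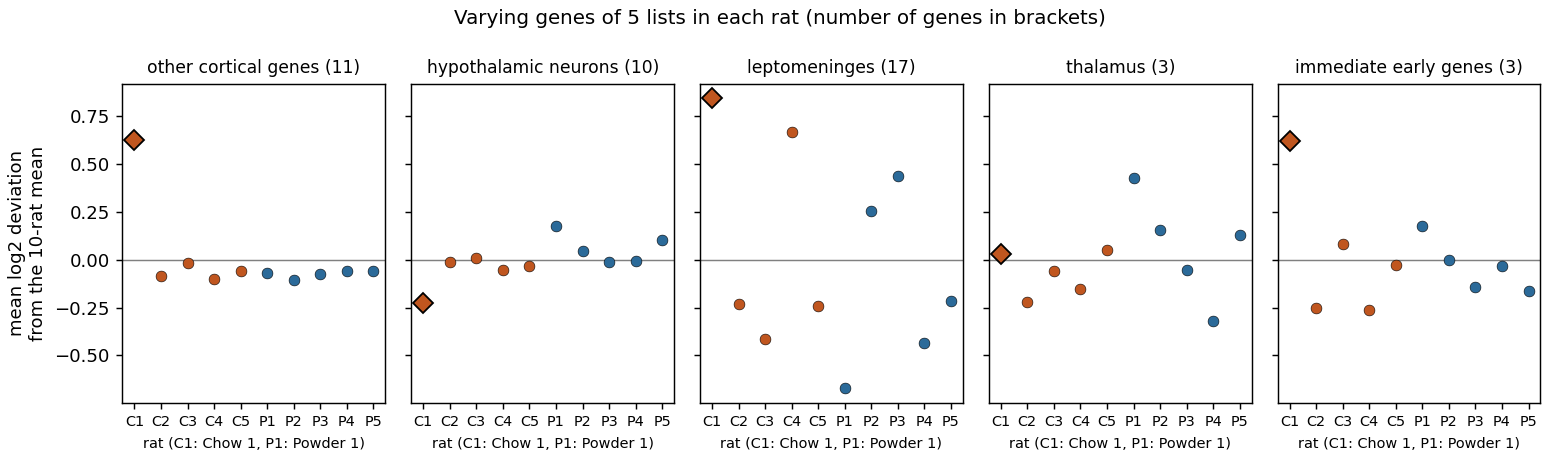
Mean log2 deviation from the 10-rat mean (vertical axis) of the varying genes of 5 lists in each rat, with C rats left and P rats right of each panel and Chow 1 as a diamond. Chow 1 is the highest rat for the 11 other cortical genes at 0.63 and the lowest for the 10 hypothalamic neuron genes at -0.22. Its own values helped to decide which genes vary. Chow 4 lies above 0 in these 5 panels only for the 17 leptomeningeal genes.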

How the data were processed

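Hypothalamic total RNA of 10 rats was hybridized to Affymetrix GeneChip rat whole-genome expression arrays, 1 for each rat. The table holds log2 signals deposited by the authors after normalization in R with factor analysis for robust microarray summarization; scanner files were not used here. It lists 31099 probe sets; 31042 were tested after removal of 57 control probe sets for hybridization. Probe sets were named by the GEO platform annotation where it gave 1 gene (20826 probe sets, 20758 with a gene identifier in RefSeq), 436 named several genes and 9780 named none. Nothing in the labels gives a hybridization or scan batch. The labels mark the rats as separate samples, and the number of arrays limits the precision.

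Diets were compared with rank products, as the study did, over all 25 pairings of C with P rats, with 100 permutations of each array's values and an FDR below 0.05 in each direction, and with limma 3.58.1 in R 4.3.3 (Benjamini-Hochberg adjustment). Standard errors come from limma, except that of the mean of the cortical members, which comes from the pooled variance of both groups. Correlations used exact permutation of the pairings. Both gene-wise tests were tested on simulated data. Camk2a sets A and B are its varying probe sets in order of mean signal. A gene of a list was represented by its probe set with the highest mean. Of 201 entries in 13 lists beside the 6 members, 181 were matched.

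Named genes were the members, the 8 genes most like Cck and the 8 most like the mean of the cortical members, and from each list the genes called and those in which Chow 1 deviated most. The members and lists were chosen with earlier results of these data known. Alternatives were a stricter FDR, rank sums, filters on level and SD, quantile normalization, median centring, other variance settings, array weights, the replicate block, a cortical covariate and leaving out each rat.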

Additional observations from a re-analysis of the deposited data

Results flagged for a closer look

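In 16 groups of 5 rats (the varying member probe sets and the 2 cortical means, each diet apart), 7 values lay far from the rest of their group, with a gap to the nearest rat above 0.71 of the group's range. In unselected groups of normal values, chance gives about 1 such value in 20 groups. The member probe sets were kept for their SD over these same rats, which favours outlying values. The 7 values are therefore not set against that rate. The genes were chosen with the high values of Chow 1 known and the mean of the 5 members repeats values of single members, so the number of Chow 1 values is a description and is not set against chance. In the C group all 4 of these values were from Chow 1, with log2 signals of 8.052 for Slc17a7, 8.692 for Lamp5, 8.163 for the mean of the 5 cortical members and 8.565 for the mean of the other cortical genes. In the P group, Powder 1 stood apart with 6.218 for Neurod6 (low) and 9.917 for Camk2a set A (high), and Powder 5 with 8.594 for Lamp5 (high). The Cck value of Chow 1 was the highest of its group without reaching that limit.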

How the results depend on the processing

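The Cck difference of 0.20 kept its direction under every alternative run, and was highest without Chow 2, at 0.29. The 2 lowest values were 0.08, without Chow 1 and with the other cortical genes as a covariate. That covariate mainly sets Chow 1 apart, so these 2 values are not separate results. The Cck call was lost at an FDR below 0.01, with rank sums, among probe sets with an SD above 0.1, and without Chow 1 or Chow 3. The difference of the cortical members ranged from -0.00983 to 0.151 with 1 rat left out and turned negative only without Chow 1, and it was 0.07 as a mean over all probe sets of each gene. The correlation of Cck with the other cortical genes ranged from 0.456 to 0.925 with 1 rat left out, and was 0.716 without the 2 farthest rats, Chow 1 and Chow 4. Counts of rank product calls depended on the setting: at an FDR below 0.01 there were 93 higher and 99 lower, with rank sums 1 (Tshb) and 7, above the median level 125 and 97, and above an SD of 0.1 there were 1 (Lysmd4) and 4 (2 of them Pxmp4, 1 Creg2 and 1 naming no gene), named after their values were seen. With 1 rat left out, 119 to 355 were higher and 120 to 327 lower, the fewest without Chow 1 and without Powder 5. limma called 0 under all settings but 1, with 0 to 1 calls when a rat was left out (1 probe set naming no gene, without Powder 4). Replicate numbers recur in both groups, and same-numbered rats deviated together in only 2 of 5 pairs (correlations -0.33 to 0.28). The labels do not say whether such rats share more than a number. With the replicate block the Cck difference was 0.20 and limma called 0. The 5 arrays a group and the flat values of 92.6% of probe sets limit what can be seen.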
